A study of Mus musculus with 6 samples.

Results

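Transcripts of glucose use were followed in cumulus cells, the somatic cells around the oocyte, across the ovulatory stimulus. The 38 genes span glucose uptake, glycolysis, the pentose phosphate pathway, lactate and the entry of pyruvate into mitochondria. They were listed by their known roles in these steps, but with earlier results of these data known. A gene was taken as measured where the annotation of the array gave it a probe set with 1 gene symbol, and 34 of the 38 were measured, out of 18194 genes in all. Gpi1, Pfkfb1, Eno1 and G6pdx were not analysed here.

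The hCG-6h group consisted of 3 samples of cumulus cells from wild-type female mice primed at 21 days of age with eCG (equine chorionic gonadotropin, 5 IU), which drives follicle growth, and given 46 h later hCG (human chorionic gonadotropin, 5 IU), the ovulatory hormone, for 6 h. The hCG-0h group consisted of 3 samples from wild-type mice given the same eCG priming and no hCG, and the labels give an age of 23 days for both groups. Cells were pooled from 50 complexes of oocyte and cumulus for a sample, and every sample had 1 array. Milrinone, an inhibitor of the oocyte phosphodiesterase PDE3, was in the handling medium at 5 µM for both groups. The descriptions of hCG-6h samples 2 and 3 name 7 h and 8 h, while their titles name 6 h. No group was kept for those hours without hCG, so hCG and elapsed time cannot be told apart, and the labels do not say whether the samples of a group came from separate animals.

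Glucose enters a cell through SLC2A transporters and is trapped by hexokinases. Phosphofructokinase commits it to glycolysis, and the lower enzymes convert it to pyruvate, which lactate dehydrogenases exchange with lactate and SLC16A carriers move across the membrane. The pyruvate dehydrogenase complex, which PDK kinases switch off and PDP phosphatases switch on, opens the way to the citric acid cycle, and the pentose phosphate pathway branches off at glucose phosphate to give NADPH and ribose phosphate. The oocyte itself uses glucose poorly, and cumulus cells are known to pass pyruvate to it.

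The tissue label was set against marker genes, and the arrays were compared. Each array had a median log2 signal of 6.43 to 6.46, and the log2 difference between the 3-prime and 5-prime control probe sets of Gapdh was 0.36 to 0.49 at hCG-6h and 0.32 to 0.39 at hCG-0h. Inha, the inhibin alpha subunit that marks granulosa and cumulus cells, averaged 13.39 and 13.46 on the log2 scale at hCG-6h and hCG-0h. Of the 10 cumulus and granulosa markers 5 fell, against 10.5% of all genes, and 5, Inha among them, did not pass. Those that fell were Slc38a3 (log2 change -3.70), Fshr (-3.22), Kitl (-2.02), Bmpr1b (-1.41) and Nr5a1 (-0.39). Of 12 oocyte markers none passed the test and 9 were dim, with a mean in at least 1 group under 6.08, the lower tertile of all genes. Zp1, Zp2, Zp3 and Bmp15, which define the oocyte, lay between 3.56 and 5.03 in all 6 samples. Dppa3, the brightest of the oocyte list, had 7.83, 7.52 and 7.54 at hCG-6h and 6.43, 7.44 and 6.15 at hCG-0h. Its groups did not overlap, with hCG-6h higher, but the change of 0.96 did not pass. The summed linear signal of the oocyte list was 691 to 773 at hCG-6h and 508 to 655 at hCG-0h. For 5 endothelial markers it was 335 to 548 at hCG-6h and 163 to 299 at hCG-0h, with none passing. Of these Cdh5 changed by 1.63, Kdr by 0.67 and Tek by 0.21, while Pecam1 at -0.20 and Emcn at -0.10 went the other way. The summed signal of 7 leukocyte markers was 381 to 441 at hCG-6h and 312 to 349 at hCG-0h, with none passing. Lower sums at hCG-6h were found for 3 theca markers (540 to 656, against 1019 to 1106), for 2 erythrocyte markers (103 to 116, against 195 to 220) and for 10 cumulus and granulosa markers (33857 to 35620, against 41496 to 42146). Of the theca markers Ptch1 fell (-0.92), while Enpep at 0.48 and Cyp17a1 at -0.00 did not pass, and of the erythrocyte markers Alas2 fell (-1.35), while Hba-a1 at 0.25 did not pass. Summed signals of 5 stromal and smooth muscle markers overlapped, at 346 to 446 and 347 to 500. The part of these other cell types in the results below was not tested. In bulk samples, fewer cells of a type and less RNA per cell cannot be told apart.

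Transcripts of glucose use changed in opposite directions along the pathway after hCG. Both hexokinases and the transporter genes Slc2a1 and Slc2a3 rose, all 3 phosphofructokinases fell, and Tpi1, Gapdh, Pgk1, Pgam1 and Pkm of the steps below did not pass. The largest rise was that of Eno2, an enolase isoenzyme, and the largest falls were those of Fbp1, a fructose bisphosphatase of gluconeogenesis, and Pdk4, a pyruvate dehydrogenase kinase. Of the 34 measured genes, 5 rose, 9 fell and 20 did not pass (limma, adjusted p under 0.05 over all genes). This is 41.2% of them, against 21.3% of all 18194 genes tested, where 10.8% rose and 10.5% fell. At least 2-fold changes that passed were found for 8 of the 34, 1 higher and 7 lower, against 9.97% of all genes. The median log2 change of the 34 was -0.16, and that of all genes was 0.0067. Values of the hCG-6h and hCG-0h samples did not overlap in 25 of the 34, or 73.5%, against 37.9% of all genes.

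**Figure D1:**
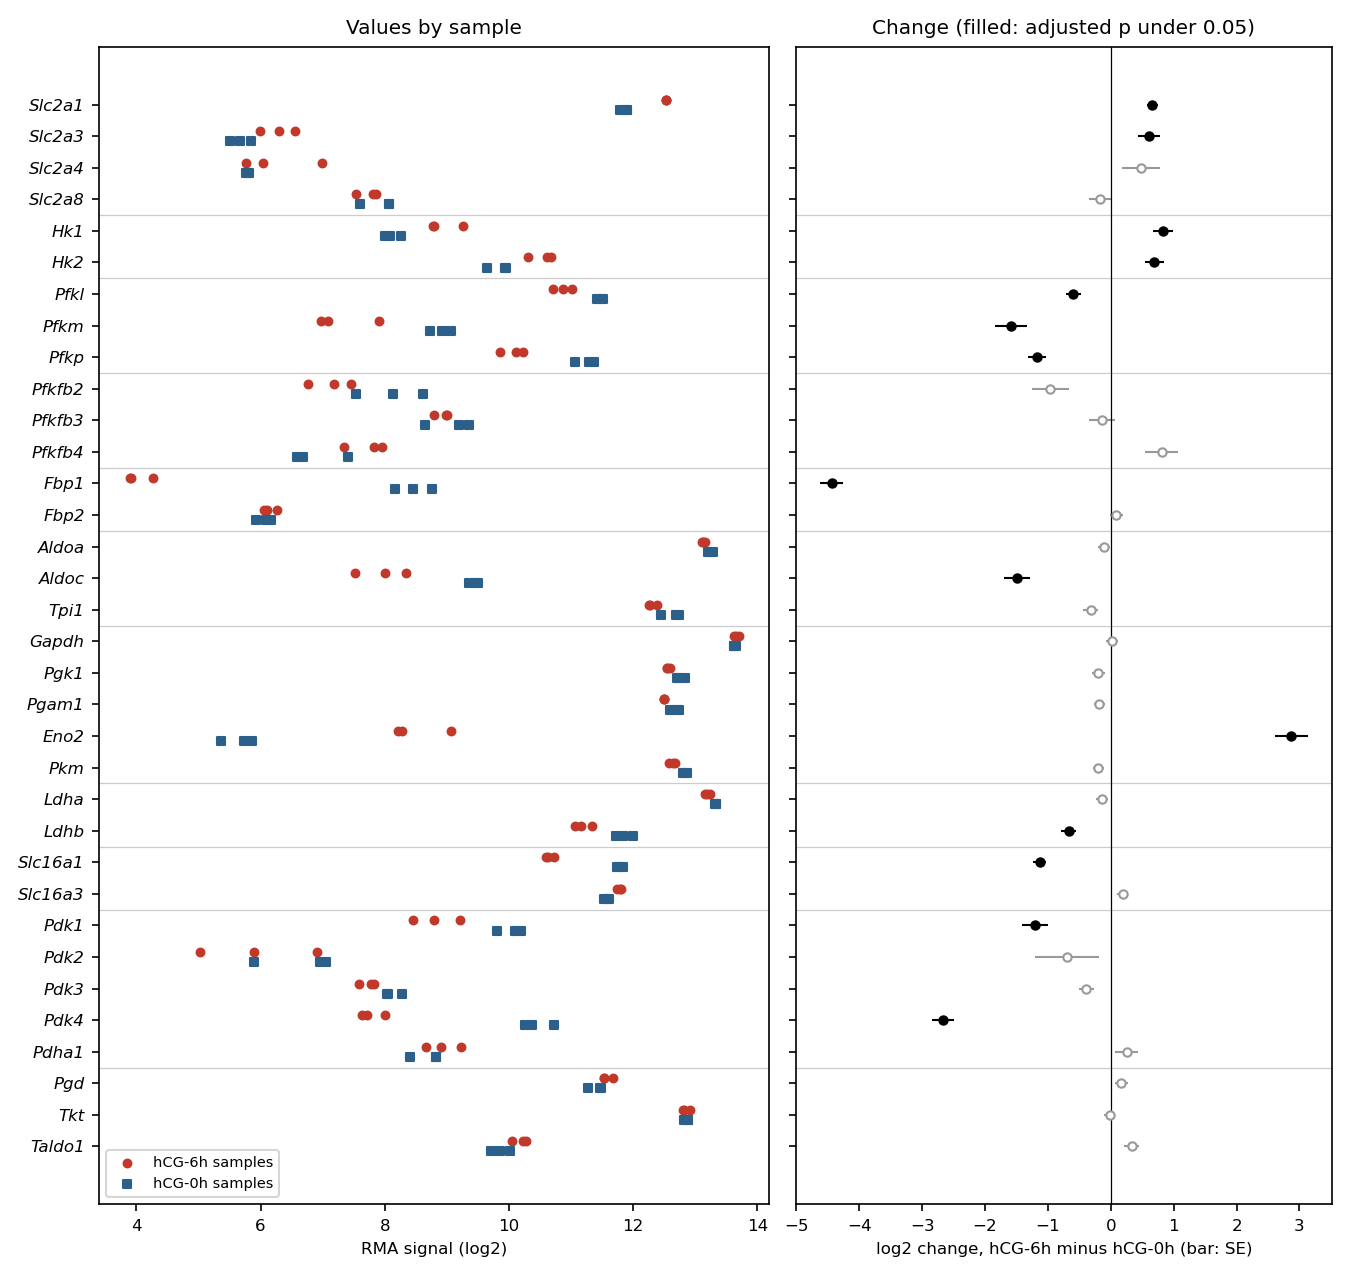
The left panel plots the RMA signal (log2) of the 34 measured genes in each sample, in pathway order from transporters to the pentose phosphate enzymes, and the right panel plots the log2 change (hCG-6h minus hCG-0h) with its SE, filled where adjusted p was under 0.05. Levels are not comparable between genes. The 3 hCG-6h samples of Fbp1 and Pdk4 sit far below the hCG-0h samples, those of Eno2 far above, while Gapdh and Tkt overlap.

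The count of changed genes is also given by signal level. Among genes with a mean of at least 12 on the log2 scale 1 of 9 members passed, Slc2a1, against 20.5% of the 448 genes at that level. From 8 to under 12, 10 of 15 members passed, against 34.9% of 6959 genes, and under 8, 3 of 10 passed, against 12.5% of 10787 genes. A group mean under 6.08 was found for 6 members.

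Promoters of the members with the largest changes and of the uptake and trapping genes Slc2a1 and Hk2 are shown because these carry the opposite directions. They were picked after the values were seen. Each line gives the 250 bases before the RefSeq start site (build GRCm38.p6), 5′ to 3′ on the gene's strand, with matches on either strand to ACGTG, the core bound by hypoxia-inducible factors, or to TGACG, the core of the cyclic AMP response element, in capitals.
Eno2, chr6:124769674-124769923, minus strand: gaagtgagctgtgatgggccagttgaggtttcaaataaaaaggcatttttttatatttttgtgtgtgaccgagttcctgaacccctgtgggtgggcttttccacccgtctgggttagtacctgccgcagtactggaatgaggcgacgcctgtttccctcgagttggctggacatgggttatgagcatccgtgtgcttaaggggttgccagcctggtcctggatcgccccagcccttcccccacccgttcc
Fbp1, chr13:62888283-62888532, minus strand: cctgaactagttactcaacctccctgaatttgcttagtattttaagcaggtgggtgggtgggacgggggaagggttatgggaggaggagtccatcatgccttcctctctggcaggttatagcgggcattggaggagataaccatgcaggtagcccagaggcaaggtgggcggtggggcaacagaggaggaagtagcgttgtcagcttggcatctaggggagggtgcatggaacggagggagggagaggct
Pdk4, chr6:5496279-5496528, minus strand: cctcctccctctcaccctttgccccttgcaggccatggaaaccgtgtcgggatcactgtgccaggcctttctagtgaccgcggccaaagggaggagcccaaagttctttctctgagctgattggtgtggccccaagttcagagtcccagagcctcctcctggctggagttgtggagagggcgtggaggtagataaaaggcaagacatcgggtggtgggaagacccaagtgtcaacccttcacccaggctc
Slc2a1, chr4:119108495-119108744, plus strand: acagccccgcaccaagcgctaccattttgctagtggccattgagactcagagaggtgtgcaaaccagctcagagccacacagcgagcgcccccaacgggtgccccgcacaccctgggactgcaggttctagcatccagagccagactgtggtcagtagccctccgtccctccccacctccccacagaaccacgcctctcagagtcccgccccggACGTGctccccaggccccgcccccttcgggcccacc
Hk2, chr6:82774455-82774704, minus strand: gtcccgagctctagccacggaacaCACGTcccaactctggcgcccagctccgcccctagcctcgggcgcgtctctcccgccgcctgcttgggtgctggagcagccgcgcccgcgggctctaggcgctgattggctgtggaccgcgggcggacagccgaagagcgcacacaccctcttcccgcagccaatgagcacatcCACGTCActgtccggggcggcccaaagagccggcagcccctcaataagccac
The windows of Eno2, Fbp1 and Pdk4 held neither motif, that of Slc2a1 held 1 ACGTG match with its first base 36 bases before the start, and that of Hk2 held 2 ACGTG matches and 1 TGACG match, which overlaps an ACGTG match. Across 32851 promoters of the same length, 16.6% held ACGTG and 17.8% held TGACG. The members had 47 promoters in the table, of which 19 held ACGTG, 10 TGACG, 7 the E-box CACGTG and 1 the full element TGACGTCA. Counted by gene, which a gene with several promoters can reach more easily, 15 of 32 members held ACGTG in at least 1 promoter, 2 of 4 that rose, 2 of 9 that fell and 11 of 19 that did not pass. TGACG was found for 8 of the 32, 1 of 4, 0 of 9 and 7 of 19. The E-box, which contains ACGTG, was in 6.02% of all promoters, and the full cyclic AMP element, which contains TGACG, was in 1.55%, with Ldha the 1 member that held it. Such matches describe letters in a window and are not bound sites.

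Transcripts for the uptake and trapping of glucose rose in 4 of 6 genes, against 10.8% of all genes, and the calls of Slc2a3 and Hk2 depended on single samples. Slc2a1, the widespread basal glucose transporter, measured 12.52 in each of the 3 hCG-6h samples, against 11.90, 11.90 and 11.78 at hCG-0h. The hCG-6h values were all above the hCG-0h values, a change of 0.66 ± 0.09 on the log2 scale (SE, limma adjusted p = 0.00346), and all 3 of its probe sets rose, by 0.66 to 0.83. Hk1, a hexokinase found in most tissues, stood at 9.26, 8.79 and 8.78 at hCG-6h and at 8.01, 8.26 and 8.08 at hCG-0h, and Hk2, the more regulated isoenzyme, at 10.61, 10.31 and 10.68 and at 9.95, 9.93 and 9.64. Neither gene's groups overlapped. Hk1 rose by 0.83 ± 0.16 and Hk2 by 0.69 ± 0.15 (SE, limma adjusted p = 0.0126 and 0.0171). The Hk2 call was lost without hCG-6h replicate 1 or 3 or hCG-0h replicate 3 (adjusted p = 0.0576, 0.0582 and 0.0513).

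Slc2a3, a transporter of high affinity, was dim, at 6.55, 6.30 and 5.99 at hCG-6h and 5.67, 5.85 and 5.50 at hCG-0h. It rose by 0.61 ± 0.17 (adjusted p = 0.0484), just inside the threshold. Leaving out any sample but hCG-6h replicate 3 ended that call (adjusted p = 0.064 to 0.138), as did centring on array medians (adjusted p = 0.0511) and 5 other settings, and its 4 probe sets ranged from -0.15 to 0.94, with none passing among all probe sets. Slc2a4, the insulin-responsive transporter, had 6.99 in hCG-6h sample 1, against 6.04 and 5.77 in the other hCG-6h samples and 5.76 to 5.82 at hCG-0h, and it did not pass (adjusted p = 0.331). Slc2a8, a transporter held mostly inside cells, overlapped between groups (7.53 to 7.86 and 7.60 to 8.06, adjusted p = 0.539).

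At the committed step all 3 phosphofructokinase genes fell, against 10.5% of all genes. Pfkp, the platelet type, had log2 signals of 9.85, 10.12 and 10.23 at hCG-6h, against 11.37, 11.28 and 11.07 at hCG-0h. It was 2.26-fold lower (log2 change -1.17 ± 0.14, SE, limma adjusted p = 0.00173), and all 3 of its probe sets fell, by log2 changes of -1.90 to -1.13. Pfkm, the muscle type, had 7.90, 7.08 and 6.97 at hCG-6h and 8.92, 9.07 and 8.72 at hCG-0h. Sample 1 was the highest of the hCG-6h samples and still lay below all hCG-0h samples. The log2 change was -1.59 ± 0.25 (adjusted p = 0.00571), and with hCG-6h sample 1 as the only hCG-6h sample it was -1.0 (adjusted p = 0.0541). Pfkl, the liver type, had 10.87, 10.70 and 11.02 at hCG-6h and 11.51, 11.47 and 11.41 at hCG-0h, a fall of 1.52-fold (-0.60 ± 0.12, adjusted p = 0.012). The weakest probe set of Pfkl, at log2 means of 7.00 and 6.81, did not pass, and with the mean of its probe sets Pfkl had a change of -0.30 and was not called (adjusted p = 0.275).

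PFKFB enzymes make and break the sugar bisphosphate that activates phosphofructokinase. None of the 3 measured passed, against 21.3% of all genes. Pfkfb2 had 6.77, 7.18 and 7.45 at hCG-6h and 7.54, 8.62 and 8.13 at hCG-0h, groups that did not overlap (change -0.96 ± 0.30, adjusted p = 0.0646). Pfkfb4 had 7.34, 7.82 and 7.96 at hCG-6h and 7.40, 6.59 and 6.69 at hCG-0h, where sample 1 lay inside the hCG-6h range (0.81 ± 0.26, adjusted p = 0.071). Without hCG-0h replicate 1 both passed, with changes of -1.24 and 1.07 (adjusted p = 0.0271 and 0.0231). Pfkfb3, an isoenzyme with high kinase activity, overlapped (8.79 to 9.0 and 8.65 to 9.36, adjusted p = 0.674).

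Fbp1, the liver-type fructose bisphosphatase, which runs the phosphofructokinase step backwards in gluconeogenesis, showed the largest change of the pathway. Its log2 signals were 4.26, 3.91 and 3.89 at hCG-6h, against 8.76, 8.16 and 8.46 at hCG-0h. The gap between the groups exceeded the spread within each, with means of 4.02 ± 0.21 and 8.46 ± 0.30 (SD, n = 3 each). Fbp1 was 21.7-fold lower at hCG-6h (-4.44 ± 0.18, SE, limma adjusted p = 2.84e-05) and ranked 8 from the bottom among all 18194 genes. The hCG-6h level was under 6.08, so the fold is approximate. Fbp2, the muscle type, was dim and overlapped (6.06 to 6.27 and 5.93 to 6.17, adjusted p = 0.663).

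Of the aldolases Aldoc fell and Aldoa did not pass. Aldoc, the brain-type aldolase, had 7.52, 8.00 and 8.34 at hCG-6h, against 9.35, 9.47 and 9.50 at hCG-0h (-1.49 ± 0.21, adjusted p = 0.00313). Its other probe set was near the floor, at means of 4.50 and 4.54, and the mean of the probe sets gave -0.76, which still passed. Aldoa, the main aldolase of most tissues, stood at 13.15, 13.11 and 13.13 at hCG-6h and 13.20, 13.29 and 13.23 at hCG-0h, a change of -0.11 ± 0.09 (adjusted p = 0.472).

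Tpi1, Pgk1, Pgam1, Pkm and Ldha, enzymes from triose phosphate to lactate, did not pass. Tpi1, the triose phosphate isomerase, had a log2 change of -0.32 ± 0.12 (adjusted p = 0.101). Pgk1 and Pkm, which make ATP, had changes of -0.20 each (adjusted p = 0.211 and 0.191), Pgam1, the mutase between them, -0.18 (adjusted p = 0.251), and Ldha, the lactate dehydrogenase subunit that prevails in muscle, -0.14 (adjusted p = 0.356). In these 5 genes and Aldoa every hCG-6h value lay below every hCG-0h value, as in 18.7% of all genes. With a trend and robust variance in limma all 6 passed (adjusted p = 0.0084 to 0.0458), which raised the count of members that fell to 15, against 9, at the same fold changes. Gapdh, measured only by the control probe sets of the array maker, had 13.65, 13.63 and 13.70 at hCG-6h and 13.62, 13.66 and 13.63 at hCG-0h (change 0.02 ± 0.09, adjusted p = 0.897).

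Eno2, the enolase best known from neurons, rose while its neighbours in the pathway did not pass. Its signals were 8.28, 9.07 and 8.21 at hCG-6h, against 5.74, 5.36 and 5.86 at hCG-0h, with no overlap. The rise was 7.29-fold (2.87 ± 0.26, adjusted p = 0.000478), and it ranked 142 from the top among all genes. At hCG-0h its mean of 5.65 was under 6.08, so this fold too is approximate. Eno1, another enolase gene, was not measured, so the enolase step as a whole was not assessed.

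Of the 4 genes of lactate handling 2 fell, against 10.5% of all genes. Ldhb, the heart-type lactate dehydrogenase subunit, had 11.33, 11.16 and 11.06 at hCG-6h and 11.84, 11.72 and 11.99 at hCG-0h. All hCG-6h values were lower, the change was -0.67 ± 0.12 (adjusted p = 0.0101), and its 4 probe sets all fell, between -0.72 and -0.66. Slc16a1, the monocarboxylate carrier MCT1 that moves lactate and pyruvate both ways, had 10.72, 10.59 and 10.62 at hCG-6h, against 11.75, 11.84 and 11.74 at hCG-0h, and was 2.19-fold lower (-1.13 ± 0.10, adjusted p = 0.000393). Slc16a3, the carrier MCT4 known for lactate export, had 11.74, 11.78 and 11.80 at hCG-6h and 11.60, 11.61 and 11.53 at hCG-0h. These groups did not overlap, but the change of 0.19 ± 0.09 did not pass (adjusted p = 0.201).

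At the entry of pyruvate into mitochondria, 2 of the 4 kinases that switch off pyruvate dehydrogenase fell, against 10.5% of all genes. Pdk4, the isoenzyme known to be raised by fasting, had 8.00, 7.64 and 7.71 at hCG-6h, against 10.37, 10.25 and 10.73 at hCG-0h. It was 6.35-fold lower with no overlap (-2.67 ± 0.17, SE, limma adjusted p = 0.000116). Pdk1, known as a target of hypoxia, had 9.21, 8.45 and 8.79 at hCG-6h and 10.09, 10.19 and 9.81 at hCG-0h (-1.21 ± 0.21, adjusted p = 0.00776). Of its 4 probe sets 3 fell, and the remaining one was dim. Pdk3 was lower in every hCG-6h sample (7.58 to 7.83, against 8.04 to 8.27) without passing (adjusted p = 0.063), and Pdk2 was scattered (5.02 to 6.91 and 5.90 to 7.05, adjusted p = 0.419). Pdha1, a catalytic subunit of the complex, had 8.91, 8.67 and 9.22 at hCG-6h and 8.82, 8.82 and 8.40 at hCG-0h and did not pass (adjusted p = 0.41).

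None of the 3 measured pentose phosphate enzymes passed, against 21.3% of all genes. Taldo1, the transaldolase, had 10.28, 10.22 and 10.05 at hCG-6h and 9.71, 9.85 and 10.01 at hCG-0h (0.33 ± 0.12, adjusted p = 0.115). Pgd, which releases NADPH, had 11.53 to 11.67 at hCG-6h and 11.27 to 11.48 at hCG-0h (adjusted p = 0.331). Neither gene's groups overlapped, whereas those of Tkt, the transketolase, did (12.80 to 12.91 and 12.82 to 12.89, adjusted p = 0.915). Groups did not overlap in 37.9% of all genes, and in 19.3% of all genes hCG-6h was the higher.

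Isoenzymes of a step were compared as ratios. Of 16 pairs chosen, Eno2 over Eno1 could not be measured. The log2 ratio of isoenzymes within each array was compared between groups for 15 pairs by a two-sided exact permutation test, where 3 samples against 3 cannot go below p = 0.1, and 0.15 was the smallest value after Benjamini-Hochberg adjustment, so no pair could pass. In 10 pairs the hCG-6h and hCG-0h ratios did not overlap (exact permutation p = 0.1 each). The share over other gene pairs was not computed, so the count of 10 only describes these pairs. Fbp1 over Fbp2 changed by -4.53, at -2.13 ± 0.10 and 2.40 ± 0.18 in hCG-6h and hCG-0h samples (SD). Slc16a3 over Slc16a1 changed by 1.33, at 1.13 ± 0.10 and -0.20 ± 0.04, and Aldoc over Aldoa by -1.38, at -5.18 ± 0.42 and -3.80 ± 0.06. Relative to Pdk1, Pdk4 shifted by -1.45 and Pdk3 by 0.82. The other pairs without overlap were Slc2a1 over Slc2a8 (0.83), Pfkm over Pfkl (-0.99), Pfkp over Pfkl (-0.57), Pfkfb4 over Pfkfb3 (0.96) and Ldhb over Ldha (-0.53). Hk2 over Hk1 overlapped, with a change of -0.13 against a pooled SD of 0.24 (exact permutation p = 0.5), and so did Slc2a1 over Slc2a3, Pfkp over Pfkm, Pfkfb3 over Pfkfb2 and Pdk2 over Pdk1.

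**Figure D2:**
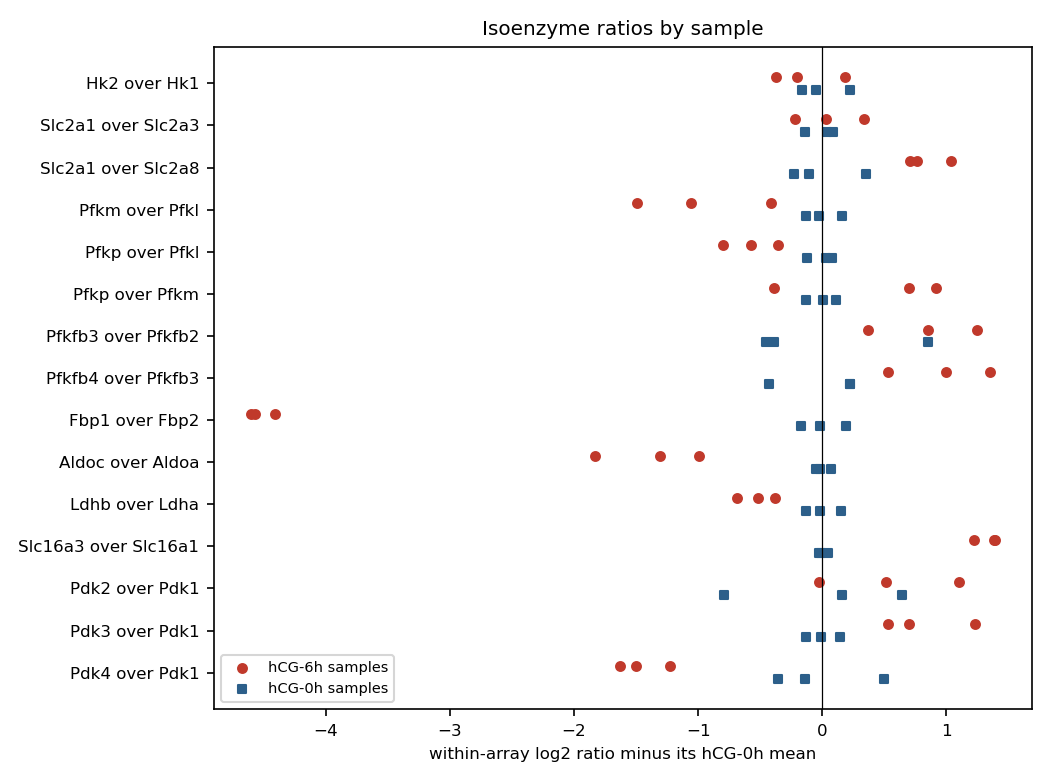
Within-array log2 ratios of 15 isoenzyme pairs in each hCG-6h and hCG-0h sample, after subtraction of the hCG-0h mean of the pair. The 3 hCG-6h samples of Fbp1 over Fbp2 lie more than 4 log2 units below the hCG-0h samples, and those of Slc16a3 over Slc16a1 lie above them, while Hk2 over Hk1 overlaps.

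Calls were also made for every probe set. The 34 members had 73 probe sets, 19 members had several, and 24 probe sets passed when all 34958 were tested, 7 higher and 17 lower, or 32.9% against 18.7% of all. No member had probe sets called in opposite directions.

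**Figure D3:**
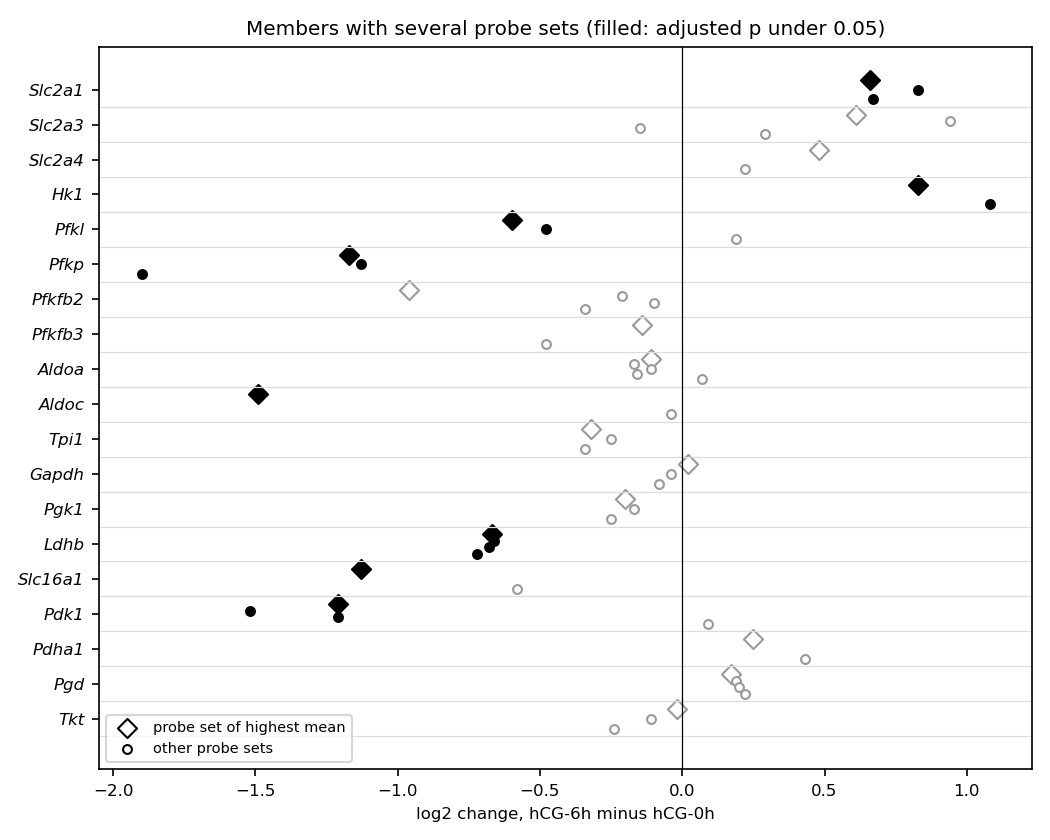
Log2 change (hCG-6h minus hCG-0h) of every probe set of the 19 members that have several, filled where adjusted p over all probe sets was under 0.05. Diamonds mark the probe set of highest mean, which the other results use. All probe sets of Slc2a1, Hk1, Pfkp and Ldhb are filled on one side of 0, whereas Pfkl, Aldoc, Slc16a1 and Pdk1 each have 1 open probe set.

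Other genes of glucose use were called in a share near that of all genes. Their groups did not overlap in 31.1%, against 37.9% of all genes. Of 79 listed, 74 were measured, 6 rose, 13 fell and 55 did not pass, 25.7% called against 21.3% of all genes, with a median log2 change of -0.10. At the pyruvate dehydrogenase complex Pdp1, the phosphatase that opposes the PDK kinases, fell too, to 6.90, 7.07 and 7.18 at hCG-6h, against 8.83, 9.24 and 9.30 at hCG-0h (-2.07 ± 0.16, adjusted p = 0.000236), whereas the other 7 measured genes of pyruvate entry and of the complex did not pass. Emb, embigin, a membrane partner of monocarboxylate carriers, had 10.62, 10.33 and 10.41 at hCG-6h, against 5.67, 8.10 and 6.63 at hCG-0h. The hCG-0h samples were spread widely, yet all lay below the hCG-6h samples (3.65 ± 0.56, adjusted p = 0.00455). The change of Emb was 4.30 without hCG-0h replicate 2 and 2.52 with the mean of its probe sets, and with hCG-6h sample 1 alone the call was lost (adjusted p = 0.0857). Bsg, basigin, the usual partner of MCT1 and MCT4, did not pass (-0.06 ± 0.10, adjusted p = 0.765).

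Pygb, the brain-type glycogen phosphorylase, had 9.40, 9.29 and 9.31 at hCG-6h, against 11.28, 11.10 and 11.13 at hCG-0h, and was 3.57-fold lower (-1.84 ± 0.10, adjusted p = 7.8e-05). Phosphorylase kinase, which activates it, was split, with the subunit genes Phka1 and Phkb lower (-1.17 and -0.98, adjusted p = 0.0266 and 0.00533) and Phkg2 higher (0.74, adjusted p = 0.0133). Gyg, the glycogen primer glycogenin, fell by 0.47 on the log2 scale and Pgm2, a phosphoglucomutase-family gene, rose by 1.36 (adjusted p = 0.0207 and 0.00229). The other phosphorylases, Pygl at -0.33 and Pygm at 0.37, did not pass (adjusted p = 0.323 and 0.242). In all, 2 of 18 measured glycogen genes rose and 4 fell, 33.3% called against 21.3% of all genes.

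Of 10 other pentose phosphate genes 3 fell and none rose, against 10.5% and 10.8% of all genes. Those that fell were Pgls, the lactonase that follows the first oxidation (-0.97, adjusted p = 0.00834), and Prps1 and Prps2, which turn ribose phosphate into the precursor of nucleotides (-0.70 and -1.70, adjusted p = 0.0235 and 0.000194). Among 12 other glycolytic isoenzymes Bpgm, the bisphosphoglycerate mutase, rose by 1.14 and Adpgk, an ADP-dependent glucokinase, fell by 0.47 (adjusted p = 0.00199 and 0.0202). In gluconeogenesis Pcx, pyruvate carboxylase, fell by 0.53 (adjusted p = 0.0148) and 5 others did not pass, Pck1 and G6pc lying at or below 4.85 in all samples. None of 8 other sugar transporters passed, against 21.3% of all genes.

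Of 9 regulators of glucose use 5 changed, or 55.6% against 21.3% of all genes. Hif1a, the oxygen-regulated transcription factor, had 12.44, 12.44 and 12.52 at hCG-6h, against 11.63, 11.74 and 11.55 at hCG-0h (0.83 ± 0.10, adjusted p = 0.00177). Sesn2, a stress-induced sestrin, also rose (0.75, adjusted p = 0.0404), a call kept in 1 of the 6 fits that left out a sample. Txnip, which restrains glucose uptake and is itself induced by glucose, had 8.93, 9.20 and 9.02 at hCG-6h, against 10.65, 10.23 and 10.19 at hCG-0h, and fell by 1.31 on the log2 scale (adjusted p = 0.00166). Mlxip and Mlxipl, the glucose-sensing factors MondoA and ChREBP, fell by 0.98 and 0.77 (adjusted p = 0.00396 and 0.0103), Mlxipl being dim throughout, between 4.19 and 5.32. Of the 19 genes called in these lists, Adpgk, Pcx, Prps1, Gyg, Phka1 and Sesn2 each lost the call when at least 1 of the 6 samples was left out.

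**Figure D4:**
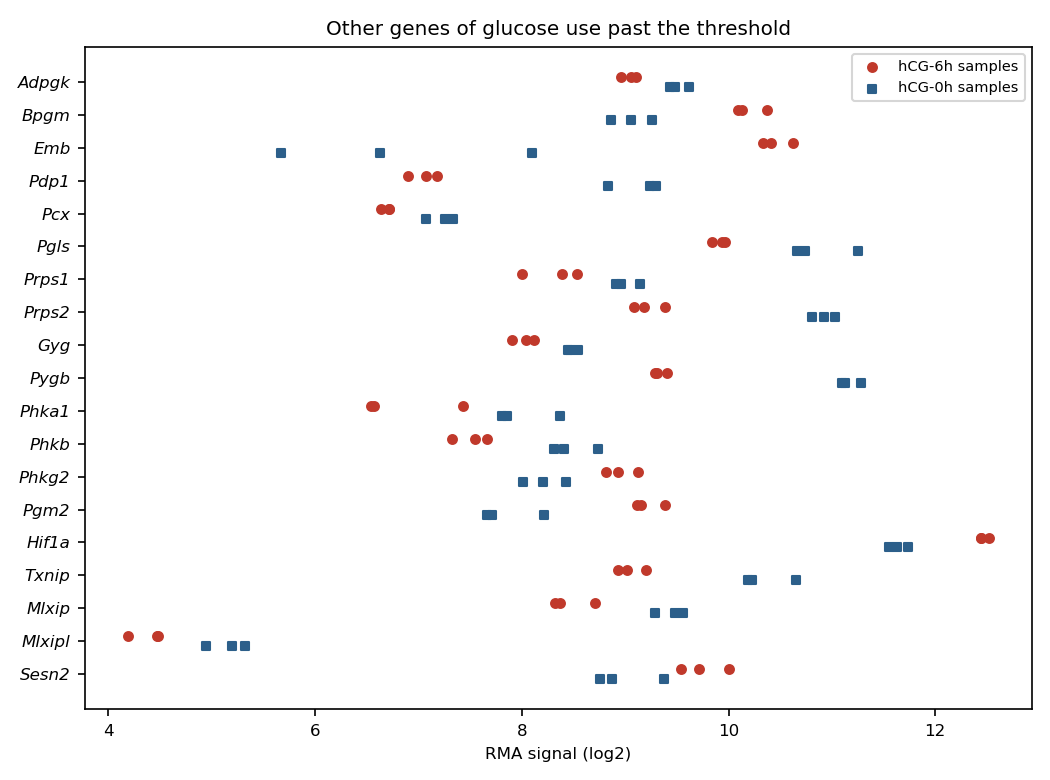
RMA signal (log2) in each hCG-6h and hCG-0h sample for the 19 other genes of glucose use past the threshold. Levels are not comparable between genes. The groups do not overlap in any of them, and the hCG-0h samples of Emb spread from 5.67 to 8.10.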

How the data were processed

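RNA of 6 cumulus cell samples was amplified, labelled with biotin and hybridised, per the labels' protocols, with 1 array for every sample. The authors deposited log2 signals of 45101 probe sets. RMA, which corrects background, normalises between arrays and summarises probes, is named with GCOS and Affymetrix Expression Console 1.1 in the submitters' processing notes. For the genome build nothing was given in the sources used here.

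Of the probe sets, 34958 had 1 gene symbol in the platform annotation, 932 had several and 9211 were not listed. The 1-symbol probe set with the highest mean over all samples stood for each of 18194 genes. Of the 34 taken for the members, 4 carry a suffix (s or x) of sets that may bind related transcripts. Matching by symbol or unambiguous synonym left 4 of 38 members out.

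Groups followed the titles. hCG-6h was compared with hCG-0h by limma 3.58.1 in R 4.3.3 (lmFit, eBayes, two-sided, no filter), adjusted by Benjamini-Hochberg over all genes, and 0.05 was the threshold. Differences are given as hCG-6h minus hCG-0h on the log2 scale and were tested against the spread between samples, which may be technical. The number of arrays limits the precision. Isoenzyme ratios were tested by exact permutation (scipy 1.17.1). Promoters come from RefSeq. The fit was tested on simulated data with independent normal noise. It recovered 5 of 50 added changes of 0.5 on the log2 scale, 34 of 50 of 1, 45 of 50 of 2 and 48 of 50 of 4. Of its 141 calls 9 were false. The simulation changed far fewer genes than passed in the data, where 3873 did. The adjusted threshold depends on that share, so these rates do not carry over to the data. A gene that did not pass may still have changed, above all by a small amount. The members, the other lists, the pairs and the settings were chosen with earlier results of these data known. All members are described, and of the other lists those past the threshold. Alternatives were the sample number as a block, trend and robust variance, repeated quantile normalisation, median centring, a filter on dim genes, other choices of probe sets, array weights, hCG-6h sample 1 alone and each sample left out in turn.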

Additional observations from a re-analysis of the deposited data

How the results depend on the processing

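Of the 14 members called, 7 (Hk1, Pfkp, Fbp1, Aldoc, Eno2, Slc16a1 and Pdk4) were called under all 16 other settings, 12 when any 1 of the 6 samples was left out, and none reversed under any setting. Leaving out each sample in turn gave 3 to 5 members higher, with 3 without hCG-0h replicate 3 or hCG-6h replicate 1, where Slc2a3 and Hk2 were lost, and 9 to 11 lower. It gave 5 to 7 and 9 to 12 of the other genes of glucose use, and 1475 to 1605 and 1402 to 1605 of all genes, higher and lower. A trend and robust variance gave 15 members lower. With hCG-6h sample 1 alone, assumed to vary like the hCG-0h samples, 3 members were higher and 5 lower, 1 and 8 of the other genes, and 809 and 767 of all genes, with fewer samples. The members higher with that sample alone included Slc2a4 (log2 change 1.2), which was not called with all samples. Calls were lost there for Slc2a1 (0.66), Slc2a3 (0.88), Hk2 (0.77), Pfkl (-0.59), Pfkm (-1.0), Ldhb (-0.52) and Pdk1 (-0.82), with directions unchanged. The labels state no pairing by sample number. Correlations of deviations were 0.012, -0.016 and 0.029 for like numbers and -0.035 to 0.023 for unlike numbers. No pairing was seen, though a weak one could be missed this way. With the number as a replicate block 5 members were higher and 10 lower, Pfkfb2 being added. Adpgk, Gyg and Sesn2 lost their calls there (adjusted p = 0.0672, 0.054 and 0.0882). Of 165 isoenzyme ratio changes under other settings 14 moved by at least 1 SD. All 14 arose with hCG-6h sample 1 alone or with the mean of probe sets. With that mean Aldoc over Aldoa changed by -0.67 and Pfkp over Pfkl by -1.11. Median centring and leaving out control probe sets could not change these ratios, so the total of 165 overstates their stability. Dim signals limit the folds of Fbp1 and Eno2.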

Other observations

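At the switch of pyruvate dehydrogenase 2 of 4 kinase genes and 1 of 2 catalytic phosphatase genes fell, against 10.5% of all genes. These were the kinase genes Pdk4 and Pdk1 and the phosphatase gene Pdp1, with log2 changes of -2.67, -1.21 and -2.07. Pdk2 at -0.69, Pdk3 at -0.39 and Pdp2 at 0.17 did not pass, and subunit genes of the complex did not pass either, Pdha1 at 0.25, Pdhb at -0.20, Dlat at -0.11, Dld at 0.16 and Pdhx at 0.38. Pdpr, a regulatory subunit gene of the phosphatase, did not pass at -0.79 (limma adjusted p = 0.0988). Its hCG-6h values all lay below its hCG-0h values, as in 18.7% of all genes. The enzyme activities behind these genes were not measured.

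Gyg, Sesn2 and Slc2a3 were the calls lost most often, passing under 8, 7 and 4 of 16, 16 and 15 other settings.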
